A study of Caenorhabditis elegans with 4 samples.

Results

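In 73 places of the Caenorhabditis elegans genome, 5 or more binding peaks of the transcription factor PHA-4 lay in a row with less than 5 kb between each peak and the next. These rows, called chains here, held 476 peaks, or 12.2% of the list that the authors made for both replicates together. Of the 3414 other peaks of that list, 1670 stood alone. A chain was built by sorting that combined list by position and joining neighbours on a chromosome when the next start minus the previous end was under 5000 bp. Positions in the combined list therefore chose the members, and the widths and q-values came from the same calls. The replicate peak lists came from the libraries behind the combined list, so no readout was independent of the choice. What follows is a description with 95% intervals over peaks (exact Clopper-Pearson for shares, order-statistic for medians) and no test. Neighbouring peaks share their surroundings, so the intervals cover counting error only and are likely too narrow.

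The series measured PHA-4 binding by chromatin immunoprecipitation and sequencing in hermaphrodites at the fourth larval stage (L4). The animals were of strain OP37 and fed on E. coli at 20 °C before crosslinking in 2% formaldehyde. Its genotype is unc-119(ed3) III with wgIs37, an insertion that carries unc-119(+) and the fusion pha-4::TY1::EGFP::3xFLAG and was made by bombardment. All 4 samples share this genotype, stage, growth and crosslinking, and the genotype lists no mutation of the worm's own pha-4. The groups were 2 PHA-4 ChIP samples, immunoprecipitated with anti-GFP antibodies, and 2 Input samples of total chromatin, for which no peak list was used here. Whole animals were used, so a peak does not say in which cells the factor was bound, and 1 strain stands for the transgene. The lists give no read counts, so depth is unknown. The labels do not say whether the replicates were separate cultures, and the spread between them may be technical.

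PHA-4 is the worm's FoxA protein, a forkhead DNA-binding factor required to form the pharynx, the feeding organ. It is also active in the gut and other digestive tissue of later stages. FoxA proteins of animals can bind sites in closed chromatin and are therefore called pioneer factors. The worm genome is compact, with genes a short distance apart. Each autosome has a gene-rich centre with little recombination and 2 arms richer in repeats. Coordinates below are those of the WormBase WS220 build as deposited. No genome or annotation of that build was used here, so chains are named by position, without genes or sequence.

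Most chains were short rows. Of the 73, 28 had 5 peaks, 16 had 6 and 14 had 7, and the other 15 had 8 to 12. The span from first to last base had a median of 11.9 kb (4.63 to 34.9 kb), and all chains together spanned 890.5 kb, or 0.888% of the nuclear genome. Peaks covered a median of 30.4% of the span, from 12.8% to 78.5%. The members made up 12.2% of the peaks of the combined list and 15.6% of the bases it covers.

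The fullest chain, near the right end of chromosome V, was the most fully covered. It ran from V 20744248 to 20779152 and held 12 peaks, 6 of them wider than 1 kb. Replicate 1 had 43 peaks in this span and replicate 2 had 50. Its first and last members show the contrast within it. The outermost peak on the left was 265 bp wide with q = 0.00151, and its best replicate peaks ranked 6984 and 3812. The outermost on the right was 6634 bp wide with q = 5.65e-192, and its best replicate peaks ranked 1 and 2. The insertion in this strain carries pha-4 sequence, and reads from the insertion can be placed at the worm's own pha-4. Whether this chain lies there was not tested, since no annotation was used.

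The 2 chains of 11 peaks on V and the one on IV had the same number of peaks in different forms. At V 6220912 to 6234350 the peaks covered 63.4% of 13.4 kb and 3 exceeded 1 kb. The widest, V 6226827 to 6230084, had 3258 bp (q = 2.77e-52). Other members of this chain ran down to 233 bp, and the first of them, V 6220912 to 6221260, overlapped no peak of either replicate. At V 10712215 to 10729771 the peaks covered 45.8% of 17.6 kb and 3 exceeded 1 kb, the widest at 1340 bp. At IV 12196532 to 12209245 no member exceeded 608 bp and the narrowest was 200 bp, yet each of the 11 was overlapped in both replicates. The chain had no very strong peak, and the median rank of its members by q was 2273. Its lowest q was 1.51e-07, at IV 12197538 to 12197998, and its highest 0.00981, which ranked 3882 in the list. Its members' best replicate peaks ranked from 1339 to 9870 in replicate 1 and from 1057 to 15265 in replicate 2.

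**Figure D1:**
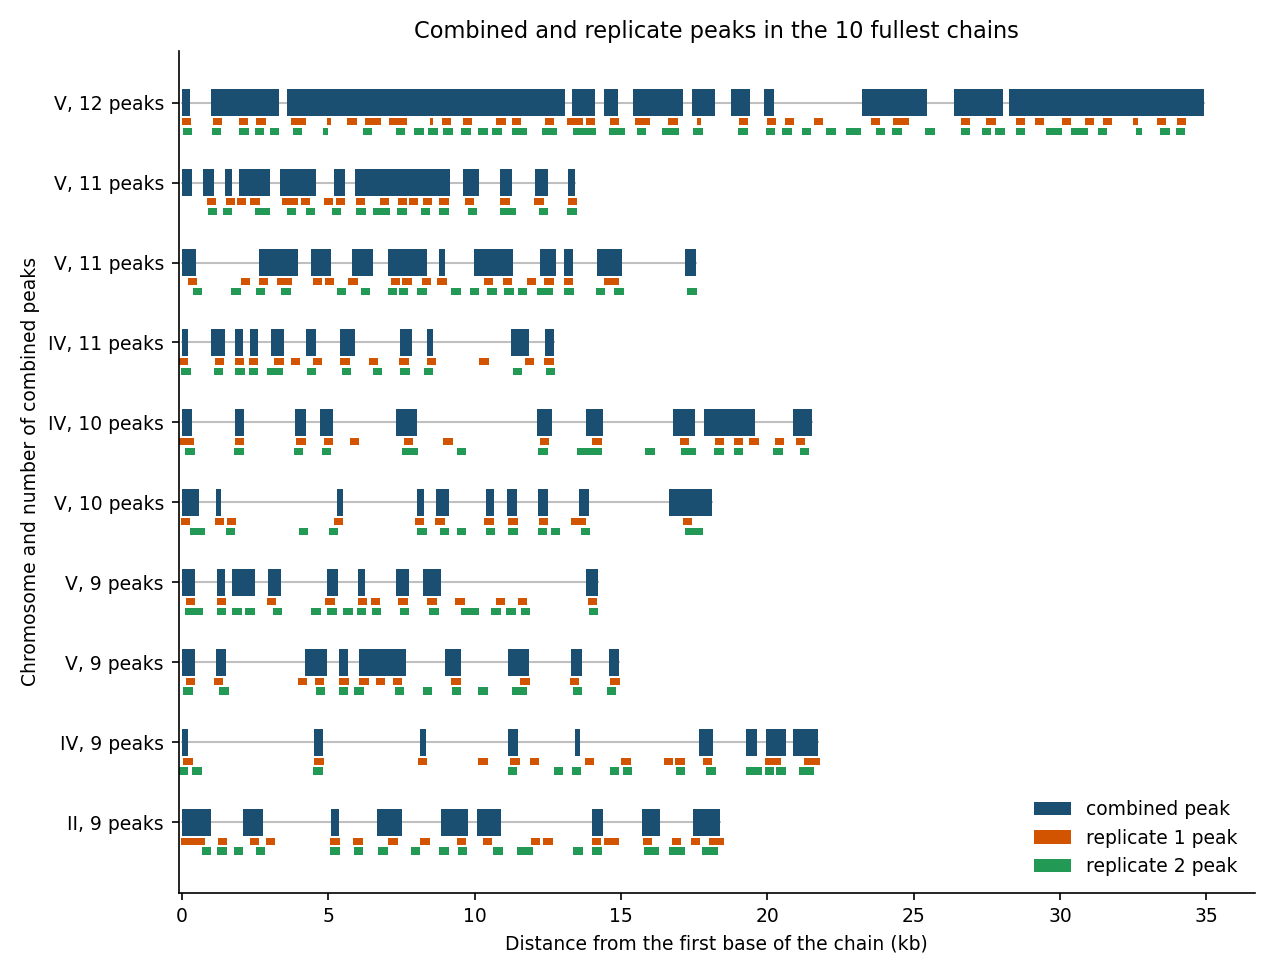
Each row is 1 of the 10 fullest chains (ties in peak number ordered by the lowest q of any member), with distance from its first base in kb on the x axis, combined peaks as blue blocks and replicate peaks as thin orange and green bars below. The chain of 12 peaks on V is mostly covered, with 1 block of 9487 bp, whereas the chain of 11 on IV consists of narrow, separate peaks.

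The other chains among the 10 fullest lay on IV, V and II. IV 5586319 to 5607849 (10 peaks over 21.5 kb) held several strong peaks. Its member IV 5604145 to 5605890 had q = 3.88e-41 and best replicate ranks of 333 and 27. Another, IV 5593631 to 5594343, had q = 3.93e-15 and ranks of 72 and 199. All 10 members were found in both replicates. V 10031155 to 10049261 also had 10 peaks, 9 of them found in both, and its best replicate peaks ranked 1644 and 797. There were 5 chains of 9, of which the 4 with the lowest q of any member complete the 10: V 20410390 to 20424613, V 11069172 to 11084118, IV 4385970 to 4407696 and II 6826745 to 6845133. The remaining one was V 13565002 to 13581047. Among the 4, V 20410390 to 20424613 held replicate peaks ranked 73 and 31, and its lowest q, 1.58e-21, belonged to a peak of 602 bp. None of its peaks reached 1 kb, so a strong chain need not hold a wide peak. II 6826745 to 6845133, the fullest on II, had 9 of 9 members found in both replicates, with a median width of 799 bp. Chromosome III had at most 7 peaks in a chain, in 4 chains, of which III 10629611 to 10643088 had the lowest q. X had at most 8, in 2 chains, of which X 6737626 to 6750555 had the lowest q. This chain on X was covered at 56.6% and had 4 peaks over 1 kb, with best replicate ranks of 54 and 63.

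Inside chains, neighbours were far closer than the rule required. The 403 gaps had a median of 1042 bp (95% interval 919 to 1191 bp, interquartile range 512 to 2108.5 bp), and 24.1% were under 500 bp against 7.20% between 4 and 5 kb. In chains of 2 the median gap was 1687 bp (1474 to 1919 bp), in chains of 3 it was 1319.5 bp (1122 to 1522 bp), and in chains of 4 it was 1278 bp (1047 to 1523 bp). The medians were lower in larger chains, under the same limit of 5 kb. Gaps are what the rule used, so this order only describes the chosen chains. The intervals of chains of 2, 3 and 4 overlapped each other. The interval for chains of 5 or more overlapped those of chains of 3 and 4 but not that of chains of 2. The chains supplied 97 of the 253 gaps under 500 bp in the combined list, or 38.3%, and 28.1% of the 1432 gaps under 5 kb. No gap in the list was shorter than 202 bp, so neighbours closer than that do not occur as separate peaks in it.

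**Figure D2:**
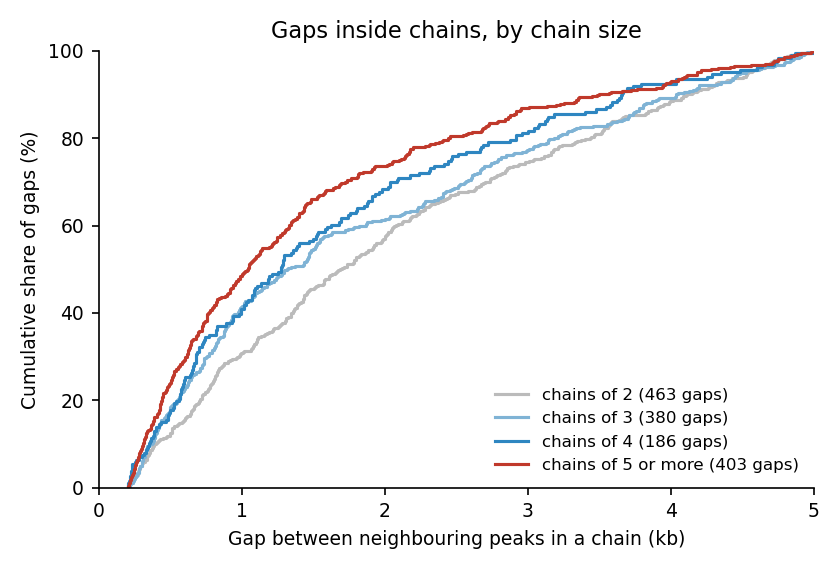
Cumulative share of gaps (y axis, %) against the gap in kb (x axis) for chains of 2, 3, 4 and of 5 or more peaks. The red line for chains of 5 or more lies above the others at short gaps, with 24.1% of its 403 gaps under 500 bp against 12.1% of the 463 gaps in chains of 2.

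Spacing varied among the chains. The median gap of a chain ran from 403.5 bp, in the chain of 11 at V 6220912 to 6234350, to 4054 bp, in the chain of 6 at V 9324253 to 9344786. The latter was 20.5 kb long and 22.8% covered, and its 6 members were all found in both replicates. The shortest chain, V 6355333 to 6359966, packed 6 peaks into 4.63 kb with gaps of 420 to 844 bp. Its peaks were narrow, with a median of 226 bp and a smallest of 49 bp, and 4 of the 6 were found in both replicates. The longest was the fullest chain on V.

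At the edges of the rule, the largest gaps kept inside chains were 4980 and 4986 bp, and the smallest gaps that ended a chain were 5013 and 5101 bp. Of the 146 outer gaps, 11 were under 6 kb and 41 under 10 kb, with a median of 18124 bp. Just below the size limit were 62 chains of 4 peaks. Their 248 peaks had a median width of 416 bp and a median rank by q of 1721, beside 443 bp and 1518.5 for the 140 peaks in chains of 5. The share wider than 1 kb was 5.65% in chains of 4 and 11.4% in chains of 5.

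Over the whole list, member peaks were wider than single peaks. Their median width was 440 bp (411 to 461 bp) against 361 bp (354 to 370 bp) for single peaks and 382 bp for all, and the medians of chains of 2, 3 and 4 were 388, 414 and 416 bp. Wide peaks made the larger contrast: 63 members exceeded 1 kb, or 13.2% (10.3% to 16.6%), against 5.76% of all combined peaks and 3.17% (2.39% to 4.13%) of single peaks. A wider peak reaches closer to its neighbour, so width enters the rule through the gaps. With gaps measured between midpoints the medians were 441 and 367 bp. The contrast depended on q. With the list cut by q into 4 parts of near-equal size, lowest first, members had medians of 735.5, 431, 339 and 291 bp. Single peaks had 506, 395, 337 and 297.5 bp. Only in the first part were the intervals apart (657 to 839 bp and 472 to 547 bp).

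Wide members occurred in 37 of the 73 chains, and some of these held several. In 36 chains no member exceeded 1 kb, 22 had 1, 9 had 2, 3 had 3, 2 had 4 and the fullest chain had 6. With the widest peak of each chain set aside, the other 403 members had a median width of 389 bp (373 to 422 bp), and 6.45% exceeded 1 kb. The widest peak was also the one of lowest q in 40 chains. It was the first or last of its chain in 28 of 73 (38.4%). End places make up 30.7% of all members, but that share weights long chains more and is not a matched baseline. The 3 widest members were V 20747844 to 20757330 (9487 bp), V 20772519 to 20779152 (6634 bp) and V 6226827 to 6230084 (3258 bp).

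By the q-value that the authors' caller gave, members stood higher in the combined list than single peaks. Their median rank by q was 1442.5 (1316 to 1700) against 2169.5 (2089 to 2254), where rank 1 is the lowest q. Members supplied 33 of the 100 peaks of lowest q and 172 of the first 1000 (17.2%), beside 22 and 313 single peaks. The whole list holds 476 members (12.2%) and 1670 single peaks, so members were over-represented at both cuts. Several of the 33 came from the fullest chain, whose 12 members had a median rank by q of 81.5. With that chain left out, the median rank of members was 1500.5 (1332 to 1713). The 5 members of lowest q ranked 1, 2, 10, 13 and 15 in the whole list. They were the 3 widest members with V 20761666 to 20762452, only 787 bp wide (q = 9.63e-43), and IV 5604145 to 5605890.

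Chains were not uniformly strong. A peak from the first 100 by q stood in 22 chains, 50 chains had one from the first 500, and 63 had one from the first 1000. Set without the lowest-q peak of each chain, the median rank of the other members was 1839 (1667 to 2081), still lower in number than that of single peaks. Peaks of low q thus shared chains with peaks near the end of the list. In IV 4385970 to 4407696, the best member ranked 77 by q and the worst 3769.

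The replicate lists ordered the same peaks differently. Each replicate peak has a score from its caller and was ranked by it, and each combined peak was given the best rank among the replicate peaks that overlap it. For the 451 members with a replicate 1 peak the median best rank was 2804 (2489 to 3204), against 2261.5 (2133 to 2425) for single peaks. For the 439 with a replicate 2 peak it was 2862 (2476 to 3257) against 2182.5 (2031 to 2373). Members thus stood above single peaks by q and below them by rank in both replicates, and these intervals did not overlap. A wide combined peak can hold several replicate peaks and takes the best of them, which favours members.

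**Figure D3:**
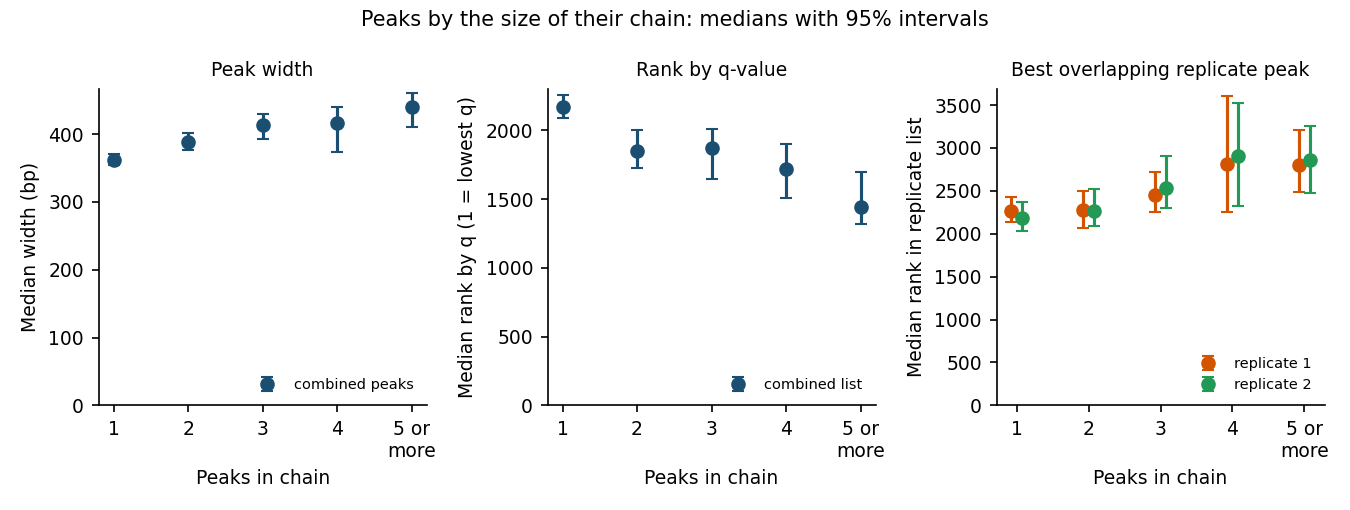
Medians with 95% intervals (y axes) for peaks grouped by the number of peaks in their chain (x axes): width in bp, rank by q in the combined list, and best rank in each replicate list. From single peaks to chains of 5 or more, width rises from 361 to 440 bp and rank by q goes from 2169.5 to 1442.5, while the replicate ranks go the other way.

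The contrast in replicate ranks differed by chromosome and by q. Peaks on V had high replicate ranks in number whether in chains or not: 4014 for members and 3904 for single peaks in replicate 1, and 3443 and 3466 in replicate 2. Outside V the medians were 2171 (1770 to 2614) for members and 2024 (1909 to 2176) for single peaks in replicate 1, whose intervals overlap. In replicate 2 they were 2427 (2186 to 2973) and 2027 (1873 to 2178), whose intervals do not. Among the 972 combined peaks of lowest q the members' medians were 1440 (1056 to 1922) and 1726 (1475 to 2141), against 785.5 (604 to 955) and 759.5 (618 to 895) for single peaks. That order held on V and outside it, with fewer peaks and wider intervals. Outside V, the 80 members in that class had median best ranks of 1012 (658 to 1432) and 1547.5 (1218 to 2265), against 608 (511 to 830) and 622 (495 to 801) for the 220 single peaks. On V the 90 members had 1929 (1478 to 2515) and 1901 (1451 to 2353), against 1251 (798 to 1564) and 1109.5 (771 to 1490) for 79 single peaks. Of these 4 pairs of intervals, the one of replicate 2 outside V did not overlap and the others did.

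By overlap of at least 1 bp, members and single peaks were found in both replicates at close shares over the whole list. Of the 476, 418 were overlapped by at least 1 bp in both replicates (87.8%, 84.5% to 90.6%), against 88.6% of all combined peaks and 88.6% (87.0% to 90.1%) of single peaks. Replicate 1 alone had found 94.7% of members and 93.5% of single peaks, and replicate 2 alone 92.2% and 93.2%, so the direction of this small difference depended on the replicate. Where each peak of a pair had to cover 50% or more of the other, the shares were 50.4% (45.8% to 55.0%) and 69.3%, a rule that peaks much wider than the replicate peaks cannot pass. Neither replicate had a peak for 4 members (0.840%, 0.229% to 2.14%) or for 32 single peaks (1.92%, 1.31% to 2.69%), beside 1.41% of all. With each replicate list limited to its highest-ranked peaks, as many as the combined list holds, members were found less: 58.6% (54.0% to 63.1%) against 64.9% (62.5% to 67.1%) in replicate 1, and 56.9% (52.3% to 61.4%) against 65.3% (63.0% to 67.6%) in replicate 2. In replicate 1 these intervals overlap slightly, and in replicate 2 they do not.

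Members not found in both replicates were narrower and higher in q than the rest. The 58 members not found in both had a median width of 300 bp and a median rank by q of 2684, against 458 bp and 1317 for the 418 that were. Of the 58, 33 had a replicate 1 peak alone, 21 a replicate 2 peak alone and 4 none, and 33 lay on V. On V 84.8% (79.3% to 89.3%) of members and 78.4% (73.7% to 82.6%) of single peaks were found in both. Elsewhere the shares were 90.3% (86.1% to 93.7%) and 91.4% (89.7% to 92.8%). On III members stood at 81.5% (70.0% to 90.1%) and on X at 97.3% (90.5% to 99.7%).

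Counted by chain, 41 of 73 had every member found in both replicates, 13 lacked 1 member and 19 lacked 2 or more. The share was lowest at III 6164632 to 6173314, where 2 of 5 members were found in both, replicate 1 having 4 and replicate 2 having 3. This was also a weak chain, whose lowest q was 0.000485. Next came V 6540035 to 6551977 with 3 of 6, V 1146786 to 1157904 and V 8773762 to 8786895 with 4 of 7 each, and, with 3 of 5 each, X 13156308 to 13168276 and IV 4445763 to 4455031. At V 8773762 to 8786895 the best peaks ranked 4144 in replicate 1 and 3993 in replicate 2.

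Both libraries had several peaks in nearly every chain. Replicate 1 had 867 peaks in the 73 spans, with a median of 11 per chain (5 to 43), and replicate 2 had 868, with a median of 11 (4 to 50). Replicate 1 had at least 5 in all 73 chains and replicate 2 in 72. The exception was the shortest chain, with 6 and 4. The counts of the 2 replicates differed by a median of 2 and at most 7 peaks. Replicate 1 had more in 30 chains, replicate 2 in 34, and 9 were equal. With each list limited to the length of the combined list, 23 chains held 5 or more of both. The replicate peaks had nearly fixed widths (316 and 320 bp), and several can fall in 1 combined peak, so these are not counts of members.

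Replicate peaks were also listed between the members, where the combined list has none. The stretches between members amounted to 592.4 kb. They held 204 replicate 1 peaks that overlapped no combined peak, or 34.4 per 100 kb, and 210 of replicate 2, or 35.4 per 100 kb. In flanks of each chain's own length, outside combined peaks, there were 22.1 and 20.7 per 100 kb, and over the nuclear genome outside combined peaks 14.7 and 15.2. The density thus fell in the same order in both libraries, from within the chains to their flanks to the genome. A replicate peak close to a member overlaps it and is not counted, which lowers the density between members most. The median ranks of these extra peaks were 9486.5 and 10366.5, in lists of 19158 and 19504 peaks. In the flanks the medians were 11008 and 10722, and over the genome 11443 and 11578.

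Chains were unequally spread over the chromosomes. Chromosome V held 31 of the 73 and 217 of the 476 members, or 45.6% (41.0% to 50.2%), against 27.1% of all combined peaks and 21.1% (19.1% to 23.1%) of single peaks. X had 13 chains with 73 members, IV 11 with 75, III 11 with 65 and II 7 with 46. Chromosome I had none: 0 of its 309 peaks were in a chain of 5 or more, with an exact interval up to 1.19%. Members come in blocks of 5 or more, so this limit is likely too low. On V 20.6% (18.2% to 23.1%) of peaks were in such chains, and on II, III, IV and X 8.95% to 11.1%. Peaks were also densest on V, at 50.5 per Mb, and sparsest on I, at 20.5 per Mb, but III had 49.4 per Mb and 9.54% of its peaks in chains. The combined and replicate lists disagreed on these peak numbers themselves. Chromosome I had 309 combined peaks but 618 and 645 in the replicate lists cut to the same length, and V had 1055 but 568 and 559. The share of gaps under 5 kb was 23.1% on I, 45.3% on V and 32.2% to 37.4% on the others.

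That order of chromosomes did not hold in the replicate lists. The same rule was applied to the highest-ranked peaks of each list, taken to the same number as in the combined list (3863 of them nuclear in both). It gave 64 nuclear chains with 406 peaks in replicate 1 and 51 with 318 in replicate 2. Chromosome I had 8 chains in each. V had 9 in replicate 1 and 8 in replicate 2, and X had most, with 16 and 15. V held 17.5% (13.9% to 21.5%) of the chained peaks in replicate 1 and 20.4% (16.1% to 25.3%) in replicate 2. Of the 73 chains, 29 overlapped a chain of replicate 1, 28 one of replicate 2, 19 both and 35 neither. Both lists gave a chain at 5 of the 31 on V and at 14 of the 42 elsewhere. The combined and replicate lists came from different callers, named PeakSeq and spp_via_IDR in the files. Caller, threshold and the making of the combined list cannot be told apart here.

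**Figure D4:**
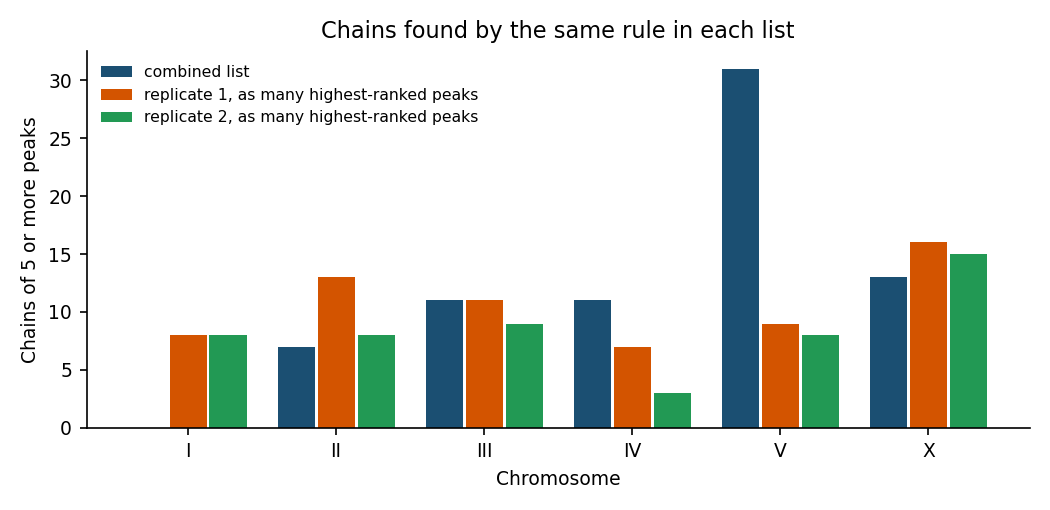
Number of chains of 5 or more peaks (y axis) by chromosome (x axis) in the combined list and in as many highest-ranked peaks of each replicate. The combined list has 31 chains on V and 0 on I, whereas the replicates have 9 and 8 on V and 8 each on I.

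Along the autosomes, members were unevenly placed, and how central they were depended on the window. Of 403 autosomal members 165 had their midpoint in the central 33.3% of the chromosome (40.9%, 36.1% to 45.9%), against 44.4% of all autosomal combined peaks and 40.4% (37.7% to 43.0%) of single peaks. In the central 50% lay 71.2% (66.5% to 75.6%) of members and 58.3% of single peaks, and between 40% and 60% of the length 33.5% and 24.6%. Without V the share in the central 33.3% was 33.9% (27.1% to 41.2%) for members and 41.4% for single peaks, so the members were the lower of the 2 there. Chains of 3 had the highest share, 56.8% (52.1% to 61.3%). Members were frequent just left of the centre: 99 of 403 (24.6%) lay between 25% and 33.3% of the chromosome's length, against 8.19% of single peaks. Of these 99, 41 stood in 6 chains at V 6000001 to 7000000. Between 10% and 20% there were 0 of 403 members and 97 single peaks. For the members an approximate upper limit, 3 divided by 403, is 0.744%, and it counts peaks as independent. Between 70% and 90% there were 14 members (3.47%) and 269 single peaks (19.9%). Those members were III 10629611 to 10643088 and IV 14605080 to 14620939, chains of 7 peaks each. The outermost 10% on either side held 91 members (22.6%) and 216 single peaks (15.9%). The length of a chromosome is here the highest position that any of the lists reaches on it.

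**Figure D5:**
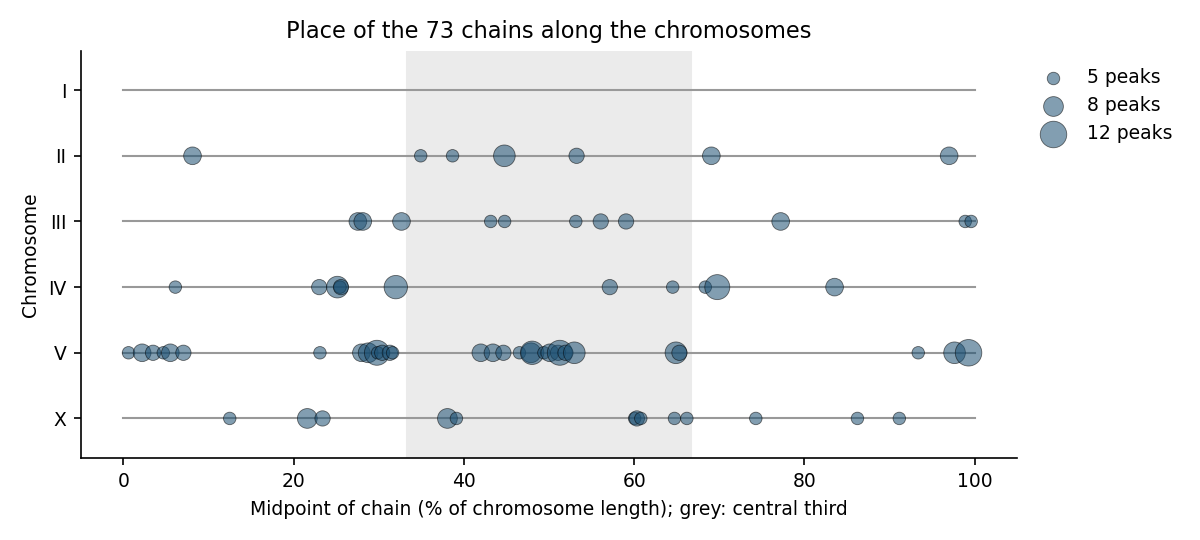
Each circle is a chain, placed by its midpoint as a percentage of chromosome length (x axis) on its chromosome (y axis), with area rising with the number of peaks and the central 33.3% in grey. Circles on V crowd at the left end, near 30% and near 50%, I has none, and the fullest chain sits at 99.3% of V.

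The place of chains differed by chromosome. V had 14 chains in its left 33.3%, 14 in the centre and 3 on the right, and 47.0% (40.2% to 53.9%) of its members were central against 37.5% (32.4% to 42.8%) of its single peaks. On IV 6 were left, 2 central and 3 right, and 14.7% (7.56% to 24.7%) of members were central against 41.0% (35.2% to 46.9%). II had 4 of 7 chains in the centre, III 5 of 11 and X 7 of 13. On X 53.4% (41.4% to 65.2%) of members were central against 35.9% (30.6% to 41.4%) of single peaks. The intervals of members and single peaks were apart on IV and overlapped on V and X.

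Some chains were themselves neighbours. Of 68 distances between successive chains on a chromosome the median was 341.8 kb, but 11 were under 100 kb and 3 under 20 kb. The closest pair was V 6220912 to 6234350, with 11 peaks, and V 6240698 to 6249658, with 5, only 6348 bp apart. Next were IV 4445763 to 4455031 and IV 4463301 to 4477424, with 5 and 6 peaks 8270 bp apart, and V 10003303 to 10020268 and V 10031155 to 10049261, with 8 and 10 peaks 10887 bp apart. In windows of 1 Mb, V 10000001 to 11000000 held 7 chains with 53 members and 105 peaks in all, and V 6000001 to 7000000 held 6 chains with 41 members and 97 peaks. IV 4000001 to 5000000 held 4 chains with 26 members and 50 peaks. Of 103 windows 42 held a chain and 6 held 3 or more.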

How the data were processed

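The data used were the peak list of each of 2 PHA-4 ChIP samples and 1 combined list. Combined peaks carry the q-value of the authors' caller, PeakSeq, per the file headers. The replicate lists (19158 and 19504 distinct peaks) carry a deposited score from a caller named spp_via_IDR, per the file headers, whose meaning is not stated. It was used to rank peaks, with ties ordered by the deposited peak number. Build is WormBase WS220. The sources used here do not give the aligner, versions, thresholds, use of Input or how replicates were combined.

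Chains join combined peaks less than 5000 bp apart. Overlap means at least 1 bp. No test was made, since the members were chosen by these calls. Chains were named by size, spacing, length, chromosome, replicate share, q and width. The members and these rules were chosen with earlier results of these data known. Alternatives were other chaining distances (2500 and 10000 bp), midpoint gaps, smallest chains of 4 and 6 peaks, peak subsets, replicate lists, overlap of 50%, a central 50%, and leaving out V, the fullest chain or a replicate. The functions were tested on simulated data. Software was pandas 2.3.3, numpy 2.4.6, matplotlib 3.10.9 and scipy 1.17.1 under Python 3.11.15.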

Additional observations from a re-analysis of the deposited data

How the results depend on the processing

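Of 48 alternative values 27 stayed within the interval or 1.5 times of the reported one. The number of chains, 73, was 40 with a chaining distance of 2500 bp, 138 with 10000 bp and 18 among the peaks with q below the median, and the median gap was 733.5 and 1526 bp at those distances. These shifts follow from the construction. The central share of members, 40.9%, was 71.2% for a central 50% of the chromosome (58.3% for single peaks), 49.0% with 10000 bp (38.6%), and 49.0% (41.8%) and 50.4% (43.1%) in the chains of replicates 1 and 2, where members were thus the more central. Without V it turned below that of single peaks (33.9% against 41.4%), and the cause was not tested. Among peaks found in both replicates the median width was 466 bp and the median rank by q 1272, and at 2500 bp that rank was 1223. The share on V was 40.4% at 10000 bp, and 17.5% and 20.4% in the chains of the replicates. The share found in both was 50.4% with overlap of 50% of both peaks (69.3% for single peaks), where wide peaks cannot pass, and 40.8% with replicate lists limited to the length of the combined list (48.5% for single peaks). Leaving out either replicate gave 92.2% to 94.7%, above 87.8% by construction, and the higher value exceeded that of single peaks (93.5%). With those shorter lists, 23 chains in place of 72 held 5 or more peaks of each replicate. No paired analysis was possible because the result comes from no test and Input has no peak list here. Without read counts, what depth limits cannot be stated.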
